A study of Mus musculus with 3 samples.

Results

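The genes described here are 10 tendon and cartilage matrix genes of mouse gastrocnemius: the transcription factors Scx and Mkx, the membrane protein Tnmd, the thrombospondins Thbs4 and Comp, the leucine-rich repeat proteins Fmod and Chad, the paired matrix proteins Cilp and Cilp2, and the lectin Clec3b. They were taken by gene symbol from the platform annotation, which named 18193 genes in all, and were read on 16 probe sets, each naming 1 gene only. RNA of the muscle was measured on 3 Affymetrix arrays, with 1 array for tamoxifen 48 h, 1 for tamoxifen 24 h and 1 for oil 24 h. Per the labels, every mouse, the oil controls included, was C57BL/CD1, carried the genotype Akt_Cre transgenic, and made in its skeletal muscle alone an Akt kinase joined to an oestrogen-binding domain, which tamoxifen stabilises. The sources used here give neither the age of the mice nor the promoter that drives the fusion. Muscles of 3 to 4 mice went into the RNA of each array, so there is no replicate error and no p-value is given. No 48 h oil array was used, so at 48 h time and treatment cannot be told apart. Tamoxifen and Akt cannot be told apart either, since no mice lacking the fusion were compared.

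Tendon cells lay down parallel collagen fibrils that carry the force of the muscle to bone, and smaller glycoproteins set the width, spacing and cross-linking of those fibrils. Scleraxis (Scx) and Mohawk (Mkx) are transcription factors that direct this programme in tendon cells, and tenomodulin (Tnmd) is a surface protein that depends on Scx during mouse development. Several of the matrix proteins are shared with cartilage, and some are also made by the connective tissue cells between muscle fibres. Gastrocnemius ends in the Achilles tendon and holds internal tendon sheets, so RNA from a whole muscle includes these cells. In such RNA, fewer cells of a type and less RNA per cell cannot be told apart.

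The 250 bases before the annotated start of 5 of the genes are printed as a description of sequence. Tnmd, Fmod and Cilp2 were lower on the tamoxifen 48 h array than on the oil array, Cilp was level, and Thbs4 was higher. The RefSeq promoter table of GRCm38.p6 held 6 of the 10 genes, Chad being the sixth. Capitals mark the E-box CANNTG, the core that Scx and other basic helix-loop-helix factors bind, and matches were sought on both strands.
Tnmd, chrX:133850758-133851007, plus strand: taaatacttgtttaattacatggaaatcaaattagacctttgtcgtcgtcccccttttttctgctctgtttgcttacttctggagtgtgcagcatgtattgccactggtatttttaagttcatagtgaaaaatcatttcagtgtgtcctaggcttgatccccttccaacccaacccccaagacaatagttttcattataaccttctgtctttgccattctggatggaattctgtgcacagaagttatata
Fmod, chr1:134037004-134037253, plus strand: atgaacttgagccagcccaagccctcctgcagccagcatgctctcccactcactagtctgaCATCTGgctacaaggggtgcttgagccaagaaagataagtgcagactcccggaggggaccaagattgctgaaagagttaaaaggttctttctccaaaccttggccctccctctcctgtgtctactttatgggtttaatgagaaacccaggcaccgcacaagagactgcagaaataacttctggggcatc
Cilp2, chr8:69887393-69887642, minus strand: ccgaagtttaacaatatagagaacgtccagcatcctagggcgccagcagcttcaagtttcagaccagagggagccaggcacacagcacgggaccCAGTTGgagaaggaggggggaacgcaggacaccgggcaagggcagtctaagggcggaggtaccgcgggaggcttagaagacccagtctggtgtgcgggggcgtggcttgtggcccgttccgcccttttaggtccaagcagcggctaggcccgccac
Cilp, chr9:65264930-65265179, plus strand: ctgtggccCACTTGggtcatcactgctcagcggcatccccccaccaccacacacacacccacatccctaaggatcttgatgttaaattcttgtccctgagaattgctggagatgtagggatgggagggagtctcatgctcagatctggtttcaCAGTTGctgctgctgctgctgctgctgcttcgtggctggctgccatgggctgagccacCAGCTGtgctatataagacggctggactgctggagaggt
Thbs4, chr13:92794819-92795068, minus strand: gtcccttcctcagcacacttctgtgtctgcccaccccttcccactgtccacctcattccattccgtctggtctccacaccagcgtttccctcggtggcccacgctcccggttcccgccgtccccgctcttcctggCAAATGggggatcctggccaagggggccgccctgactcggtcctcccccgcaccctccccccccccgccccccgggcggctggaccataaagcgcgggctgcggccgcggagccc
The E-box was found 3 times before Cilp and once each before Fmod, Cilp2, Thbs4 and Chad, and these letters are not in the Tnmd window. Of 32851 promoter windows of the same length, 66.2% held at least 1 E-box and 12.2% held 3 or more. The E-box before Fmod (CATCTG) begins 189 bases before the start, that before Cilp2 (CAGTTG) 156 bases, that before Thbs4 (CAAATG) 115 bases and that before Chad (CAACTG) 49 bases. The letters CAGAC, the core that Smad factors bind, stood 2 times each before Fmod, Cilp2 and Thbs4 on either strand, and 42.2% of all windows held them. In Fmod 1 of these matches begins 195 bases before the start, beside the E-box but sharing no base with it. TATAAA was found before Chad alone of the 6 genes, beginning 28 bases before the start, and in 12.4% of all windows. GTAAACA, a core bound by FoxO factors, which Akt restrains, was in none of the 6 windows and in 3.17% of all. The Tnmd window was 38.4% G and C and the Thbs4 window 70.8%. Any link between these matches and the ratios was not tested. A match of letters is not a binding site.

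Intensities below are the deposited linear values after scaling the arrays to a common median, and ratios are log2 differences of these after a floor of 4.05. Probe sets whose mean percentile rank over the arrays reached 0.5 were retained (called kept here), 14 of the 16 probe sets and 9 of the 10 genes, and each gene was read on its brightest kept probe set. Higher and lower with no size beside them refer only to the order of single readings, and a 2-fold difference is the size rule used for counts. The spread of ratios between kept probe sets of the same gene, a technical yardstick that leaves out variation between mice and arrays, had a median SD of 0.26 in log2 for tamoxifen 48 h over oil, 0.30 for tamoxifen 24 h over oil and 0.26 for tamoxifen 48 h over 24 h, over 5001 genes.

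On the tamoxifen 48 h array the tendon and cartilage matrix genes were mostly below oil. Of the 9 genes read, 7 had a ratio below 0, against 49.4% of 11092 genes, and the median log2 ratio was -0.77, against 0.01 over all genes. The members were chosen with earlier results of these data known, so the shares over all genes are description and no test. The 7 include Cilp2, kept through the arrays where it was high, and Scx, whose second probe set (not kept) was above oil. Cilp2 and Clec3b were 2-fold or more lower, which 2.71% of all genes were, and none was 2-fold higher, which 3.72% of all genes were. Tnmd, Chad and Fmod stood next, between 1.71-fold and 1.95-fold lower, and Thbs4 stood apart at 1.91-fold higher. On the tamoxifen 24 h array 7 of 9 were again below the same oil array, against 46.0% of all genes, with a median of -0.42 against 0.04 over all genes. Clec3b alone was 2-fold lower there, which 2.48% of all genes were, and none was 2-fold higher, which 2.35% of all genes were. Over the 14 kept probe sets, 12 were below oil at 48 h (50.9% of all kept probe sets) and 3 were 2-fold lower (3.28%), and at 24 h these counts were 12 (49.9%) and 2 (4.99%). None of the 14 was 2-fold higher, which 3.86% of all kept probe sets were at 48 h and 2.33% at 24 h. Of these probe sets 6 read Fmod and share a target. The oil array enters both comparisons. It held the highest reading of 6 of the 9 genes and the lowest of 1 (Thbs4), while over all genes it was highest in 35.5% and lowest in 40.0%.

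**Figure D1:**
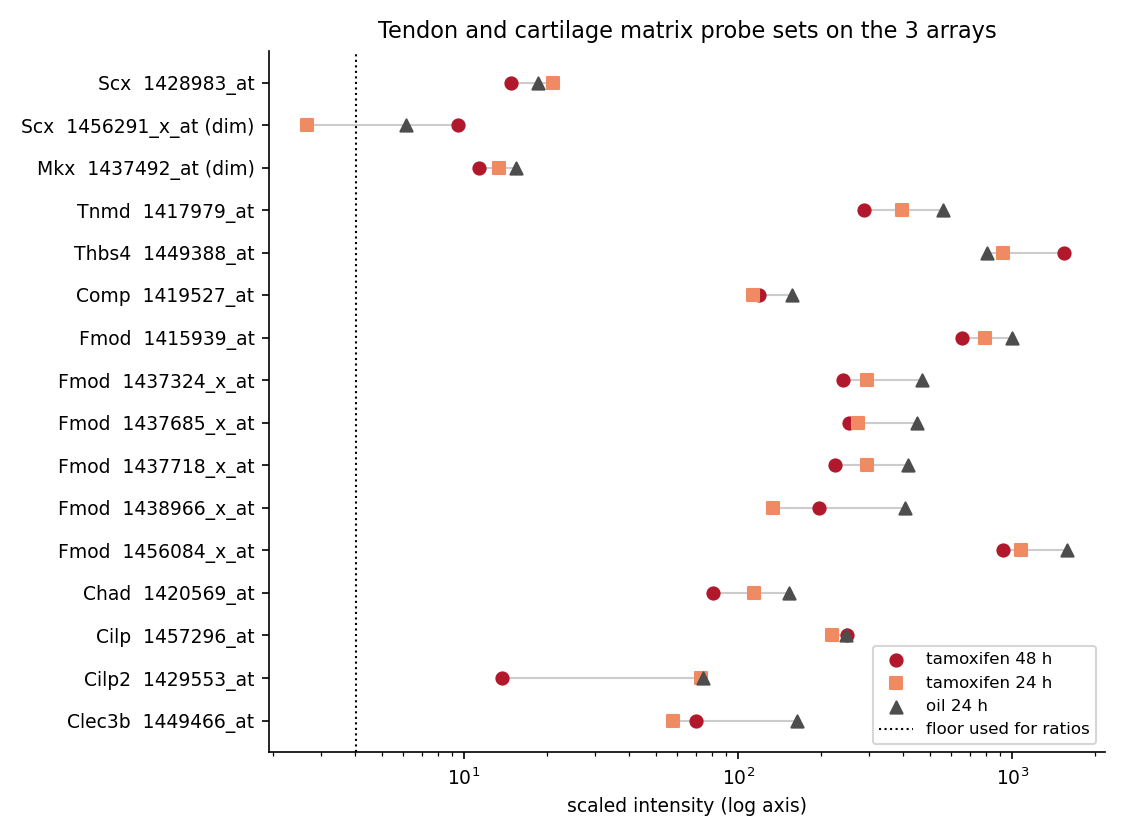
Scaled intensity (log axis) of the 16 probe sets of the tendon and cartilage matrix genes on the tamoxifen 48 h (circles), tamoxifen 24 h (squares) and oil 24 h (triangles) arrays, with 1 point per array and the dotted line at the floor of 4.05. The oil reading lies to the right of both tamoxifen readings for Tnmd, Comp, Chad, Clec3b, Mkx (not kept) and all 6 Fmod probe sets. It does so for Cilp2 too, but only just past the tamoxifen 24 h reading (74.5 against 72.9). For Thbs4 it lies to the left of both.

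The tendon transcription factors gave dim readings. Scx read 14.9 on the tamoxifen 48 h array, 21.2 at tamoxifen 24 h and 18.5 on the oil array on its kept probe set, 1428983_at. Its second probe set, 1456291_x_at, was not kept and ordered the arrays otherwise, with 9.49, 2.68 (under the floor) and 6.15. Mkx read 11.3, 13.4 and 15.4, and its only probe set had a mean rank of 48.8%, just under the threshold, so it was left out of the counts. The kept probe set of Scx was just above that threshold, at 54.5%. Scx is 1 of the 7 genes counted below oil at 48 h, on a difference of -0.32 that its second probe set does not share.

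Tnmd, the most tendon-restricted surface protein of the set, was bright on every array. It read 288 on the tamoxifen 48 h array, 396 at tamoxifen 24 h and 560.1 on the oil array. The readings were in that order without a tie, and the ratios to oil were -0.96 at 48 h (1.95-fold lower) and -0.50 at 24 h (1.42-fold lower). Among the 1000 kept probe sets nearest in mean level, 1.5% had a ratio as low or lower at 48 h and 6.1% at 24 h. The size rule was missed narrowly at 48 h, and of 11 settings of the processing (the one reported and 10 alternatives) 3 alternatives passed it, with ratios between -1.05 and -0.92 over all of them. Between the tamoxifen arrays the ratio was -0.46.

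Thbs4 and Comp encode thrombospondins, pentameric proteins of the tendon matrix that bind collagen fibrils. They went in opposite directions. Thbs4 read 1549.6 on the tamoxifen 48 h array, 928 at tamoxifen 24 h and 810.0 on the oil array, so the 48 h reading stood apart from the other two. Its ratio was 0.94 for tamoxifen 48 h over oil, 0.20 for tamoxifen 24 h over oil and 0.74 for tamoxifen 48 h over tamoxifen 24 h. Of the 1000 kept probe sets nearest in level, 3.9% had a ratio to oil as high or higher at 48 h, and 39.4% did at 24 h. Comp, cartilage oligomeric matrix protein, read 119.3, 113.6 and 156.6 on the same arrays in that order. Both tamoxifen readings were below oil, by 1.31-fold at 48 h and 1.38-fold at 24 h, with 18.1% and 10.8% of probe sets of similar level as low or lower. The other thrombospondin genes were mixed. Thbs1 had a log2 ratio of 0.64 at 48 h and 0.05 at 24 h, Thbs2 of -0.38 and -0.91, and Thbs3 of -0.32 and -0.09. The 3 kept probe sets of Thbs2 spanned -0.71 to -0.29 at 48 h and -0.91 to 0.14 at 24 h.

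Fmod was read on the most probe sets, 6, and all were kept. Fibromodulin, its product, is a small leucine-rich proteoglycan that binds collagen and governs fibril width. On its brightest probe set, 1456084_x_at, it read 926 on the tamoxifen 48 h array, 1073 at tamoxifen 24 h and 1581 on the oil array, ratios of -0.77 and -0.56 to oil. Probe set 1415939_at, the only one without the _x_at ending that marks possible cross-hybridisation, read 654, 798 and 999.7. All 6 were below oil on both tamoxifen arrays. At 48 h the 6 ratios lay between -1.04 and -0.61 with an SD of 0.15, so the readings were 48.7% to 65.4% of oil. At 24 h they lay between -1.59 and -0.33 with an SD of 0.45, and the extreme, 1438966_x_at, read 134.5 there against 404.9 on the oil array. The same probe set was the only one higher on the tamoxifen 48 h array than on the tamoxifen 24 h array, and the other 5 had ratios of -0.39 to -0.12. These probe sets read 1 RNA pool on each array and are not replicates.

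**Figure D2:**
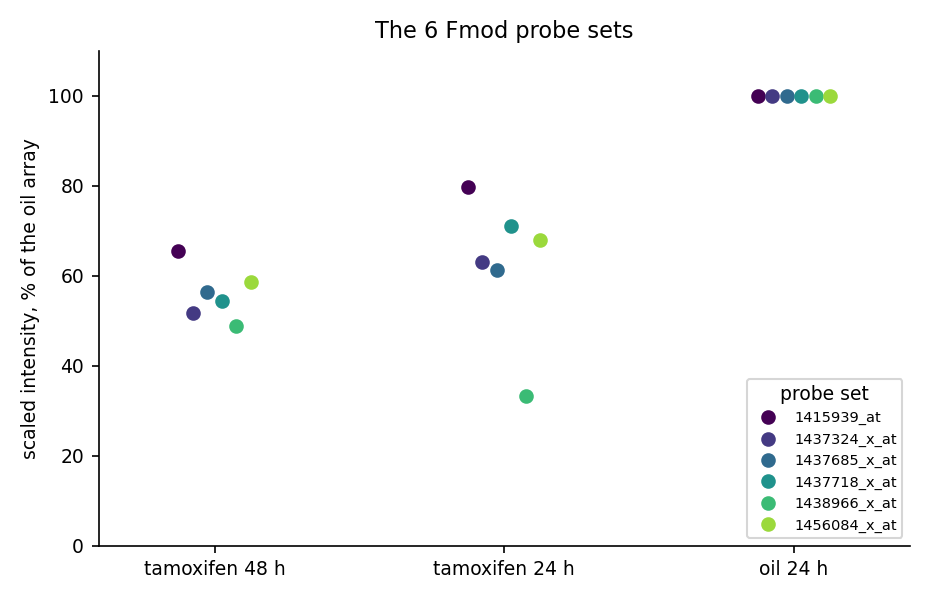
Scaled intensity of the 6 Fmod probe sets as a percentage of the oil array's reading, for tamoxifen 48 h, tamoxifen 24 h and oil 24 h, with points spread sideways for legibility. All points of the tamoxifen 48 h array lie between 48.7% and 65.4%, and those of the tamoxifen 24 h array between 33.2% and 79.8%.

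Chad encodes chondroadherin, a leucine-rich repeat protein that links collagen to integrin on the cell. It read 81.0 on the tamoxifen 48 h array, 114.3 at tamoxifen 24 h and 153.4 on the oil array. The order of the arrays was that of Tnmd, with ratios to oil of -0.92 at 48 h and -0.42 at 24 h and of -0.50 between the tamoxifen arrays. At 48 h 1.9% of probe sets of similar level were as low or lower, and at 24 h 12.9%. Chad stayed within 2-fold of oil under all 11 settings.

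Cilp and Cilp2, a pair of related secreted proteins of the cartilage intermediate layer, stood far apart at 48 h. Cilp2 read 13.7 on the tamoxifen 48 h array, 72.9 at tamoxifen 24 h and 74.5 on the oil array. The tamoxifen 24 h and oil readings were nearly equal, and the 48 h reading was 5.42-fold below oil and 5.31-fold below tamoxifen 24 h. It was the 1 member of the 9 past 2-fold between the tamoxifen arrays, where 1.42% of all genes were 2-fold lower and 1.8% were 2-fold higher. Cilp2 passed the filter through the arrays where it was high, with ranks of 76.5% at tamoxifen 24 h and 76.9% on oil, while its rank of 49.0% at tamoxifen 48 h was under the threshold. Its place in the counts at 48 h is therefore no support for them. The value rests on 1 probe set, and with log2(value + 16) in place of the floor the ratio to oil was -1.61. Cilp read 249 on the tamoxifen 48 h array, 221 at tamoxifen 24 h and 247 on the oil array. The log2 ratios of Cilp were 0.01 for tamoxifen 48 h over oil, -0.17 for tamoxifen 24 h over oil and 0.17 between the tamoxifen arrays. Each was smaller in size than the spread between probe sets of 1 gene.

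Clec3b encodes tetranectin, a C-type lectin that binds plasminogen and is made by connective tissue cells. It read 69.9 on the tamoxifen 48 h array, 57.7 at tamoxifen 24 h and 164.5 on the oil array. Both tamoxifen readings were far below oil and close to each other, with ratios of -1.23 (2.35-fold lower) at 48 h and -1.51 (2.85-fold lower) at 24 h. Of probe sets of similar level, 0.6% and 1.4% were as low or lower. It was the only member 2-fold below oil at both times, and it remained so under all 11 settings.

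**Figure D3:**
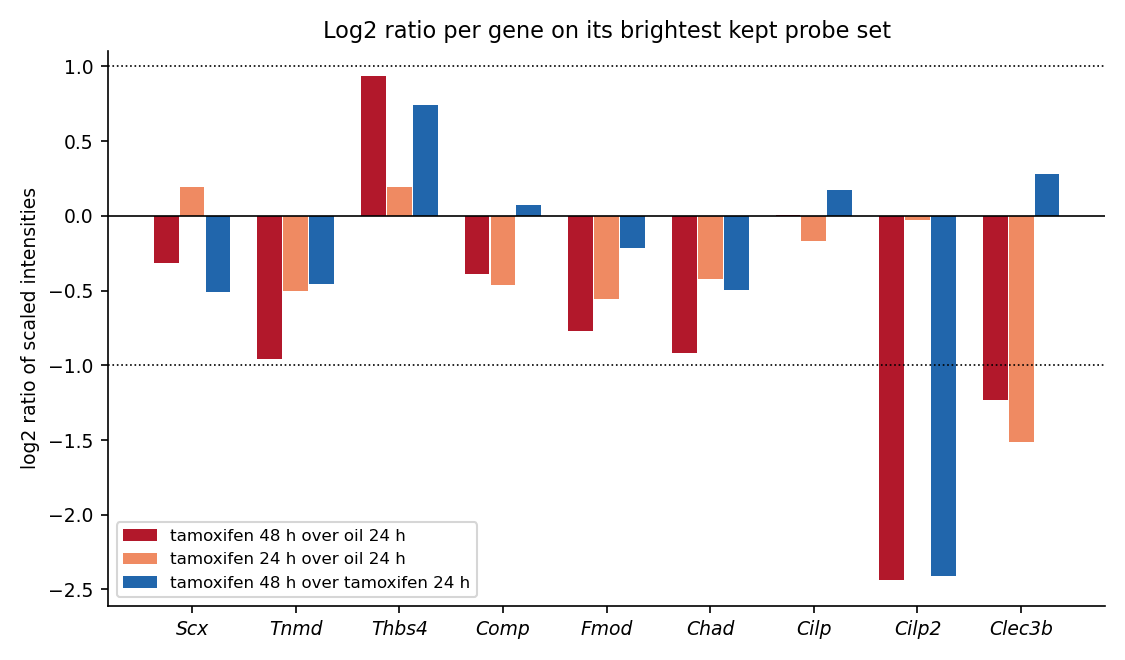
Log2 ratio of each of the 9 genes with a kept probe set, on its brightest one, for tamoxifen 48 h over oil 24 h, tamoxifen 24 h over oil 24 h and tamoxifen 48 h over tamoxifen 24 h, with dotted lines at 2-fold. Cilp2 (-2.44) and Clec3b (-1.23) pass the lower line at 48 h against oil, Clec3b (-1.51) does at 24 h, and Thbs4 (0.94) is the highest bar.

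The members had 3 main kinds of order over the arrays. Tnmd, Fmod and Chad were lowest at tamoxifen 48 h, between at tamoxifen 24 h and highest on oil. Clec3b and Comp were low on both tamoxifen arrays, with 48 h slightly above 24 h (for Comp the reverse without scaling). Cilp2 and Thbs4 stood apart at 48 h, in opposite directions, and were near oil at 24 h. Over the 9 genes the ratio of tamoxifen 48 h to tamoxifen 24 h had a median of -0.21, against -0.02 over all genes, and 5 were below 0, against 53.1% of all genes. Of the 14 kept probe sets, 9 were lower (50.2% of all kept probe sets), 1 was 2-fold lower (1.55%) and 0 were 2-fold higher (3.9%).

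Other matrix genes were read from 7 lists, whose 106 genes are not members, and 75 of these had a kept probe set. For the counts below oil that follow, the share over all genes was 49.4% at 48 h and 46.0% at 24 h. Among 10 leucine-rich proteoglycans, the family of Fmod, 9 were below oil at 48 h and 8 at 24 h, with medians of -0.50 and -0.25, and the sign of both medians held under all 11 settings. Ecm2 was the 1 gene past 2-fold, at 56.8 on the tamoxifen 48 h array, 90.5 at tamoxifen 24 h and 132.8 on the oil array (2.34-fold lower at 48 h). Ogn (osteoglycin) was 1.96-fold lower at 48 h, at 735, 912 and 1441, and Dcn (decorin), the most abundant proteoglycan of tendon, had a ratio of -0.41. Podn was the exception, at 0.07. Prelp, a proteoglycan gene beside Fmod on the chromosome, had a ratio of -0.34 at 48 h and 0.18 at 24 h. Its second kept probe set gave -0.63 and -0.47, so the sign at 24 h was not shared. Btg2, on the other side of Fmod and not a list gene, had ratios of -0.78 and -0.63. Among 11 elastic fibre and microfibril genes 9 were below oil at 48 h and 7 at 24 h, with medians of -0.43 and -0.16. None passed 2-fold, and Fbln1 (fibulin 1) was lowest at 48 h, with a ratio of -0.97 and of -0.95 on its second kept probe set. Second kept probe sets of Eln, Ltbp3 and Mfap5 were above oil at 48 h, at 0.83, 0.51 and 0.15. Those of Eln and Ltbp3 were above oil at 24 h too, at 0.65 and 0.26, so the sign for these genes was not shared.

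Of 11 collagen genes of tendon, 4 were below oil at 48 h and 7 at 24 h, with medians of 0.16 and -0.08, the second of which was 0.02 without scaling. Col1a1, a chain of the main tendon collagen, read 1211 on the tamoxifen 48 h array, 943 at tamoxifen 24 h and 536 on the oil array (2.26-fold higher at 48 h). The second kept probe set of Col1a1 gave 0.13 at 48 h, and Col1a2, its partner chain, gave -0.27. Col12a1, a fibril-associated collagen, was 2.02-fold lower at 24 h, at 22.0 against 44.5 on the oil array, but under 2-fold in 4 of 10 settings. Among 14 collagen-processing genes 8 were below oil at 48 h and 9 at 24 h, with medians of -0.06 at both. Loxl4, a lysyl oxidase relative, was 2.55-fold lower at 24 h from dim readings of 9.97 against 25.5 on the oil array, and its ratio was -0.68 with log2(value + 16).

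Among 8 regulators of tendon and cartilage cells 1 was below oil at 48 h and 2 at 24 h, with medians of 0.55 and 0.30. Egr1, a zinc finger factor of early responses that also acts in tendon cells, read 393 on the tamoxifen 48 h array, 192.8 at tamoxifen 24 h and 115.1 on the oil array. The 48 h reading was 3.41-fold above oil, and 2.04-fold above tamoxifen 24 h (a ratio of 0.87 without scaling). Tgfb2, a growth factor that acts on tendon progenitors, was 2.04-fold above tamoxifen 24 h at 48 h, but its 4 kept probe sets spanned -0.64 to 1.03. Of 13 thrombospondin and matricellular genes 9 were below oil at each time, with medians of -0.26 and -0.13. At 48 h Ccn3 was the lowest of these, at -0.95, and Thbs1 the highest. Ccn2 (connective tissue growth factor) was 2.32-fold lower on the tamoxifen 48 h array than on the tamoxifen 24 h array, at 181 against 421. Over all 75 genes the median was -0.24 at 48 h and -0.15 at 24 h, with 47 and 49 genes below oil. At 48 h 1 was 2-fold lower and 2 higher, which 2.71% and 3.72% of all genes were. At 24 h 2 were lower and 0 higher, which 2.48% and 2.35% of all genes were.

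**Figure D4:**
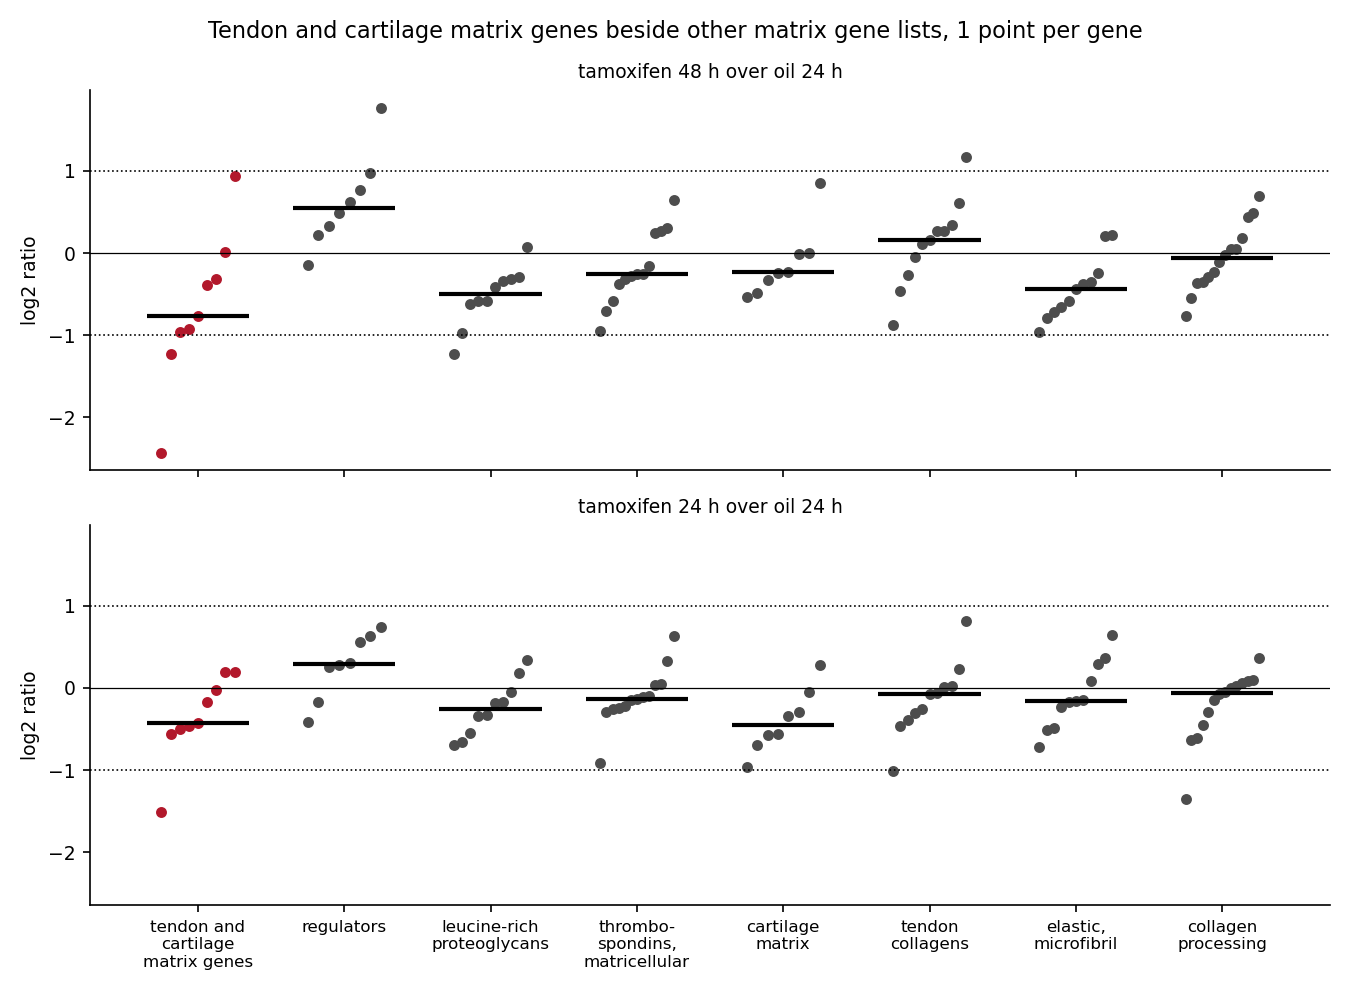
Log2 ratio to oil at tamoxifen 48 h (upper panel) and tamoxifen 24 h (lower panel) of the 9 tendon and cartilage matrix genes and of the kept genes of 7 other matrix lists, with 1 point per gene, thick lines at the medians and dotted lines at 2-fold. At 48 h the medians are -0.77 for the 9 genes, -0.50 for leucine-rich proteoglycans, -0.43 for elastic fibre genes and 0.16 for tendon collagens.

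Cartilage itself was barely represented. Of 8 chondrocyte markers 6 had no kept probe set, among them Col2a1, the collagen of cartilage, at 12.5 on the tamoxifen 48 h array, 1.28 at tamoxifen 24 h and 7.96 on the oil array, and Acan (aggrecan) at 17.5, 8.85 and 3.65. Of the 20 cartilage matrix genes 8 were kept, and 7 of these were below oil at each time, with medians of -0.24 at 48 h and -0.45 at 24 h. The count at 48 h includes Col11a2 (-0.003) and Matn3 (-0.013), which were level with oil, and that at 24 h includes Col11a2 at -0.05. Vcan (versican), a large proteoglycan also made outside cartilage, was the exception at both, at 0.86 and 0.28. Of 10 tenocyte markers 9 were kept, but 7 of these are members, so the list is no independent support for the tendon side of the label. The cartilage side rests on matrix genes that tendon shares. The 2 tenocyte markers that are not members, Tppp3 and Kera, summed to 71.4% of oil at 48 h and 72.0% at 24 h.

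Markers of other cell types differed between arrays too. The 9 muscle fibre markers summed to 100.1% of oil at 48 h and 96.7% at 24 h, and the 10 fibroblast and interstitial markers to 88.8% and 92.2%. Endothelial markers summed to 83.4% and 99.8%, macrophage markers to 80.3% and 95.2%, and Schwann cell markers to 84.9% and 84.8%. Genes within the fibroblast, endothelial and macrophage lists went different ways. At 48 h 7 of 10 fibroblast markers were below oil (-0.96 to 1.18) and 4 of 6 macrophage markers (-1.07 to 0.58). Of 6 endothelial markers 4 were below oil at 48 h (-0.56 to 0.47) and 3 at 24 h (-0.36 to 0.75). The 4 smooth muscle markers, all kept, summed to 57.1% of oil at 48 h and 57.4% at 24 h, from 1240.0 and 1247 against 2172 on the oil array. All 4 were below oil on both arrays, the same side as Tnmd, Fmod, Chad, Comp and Clec3b. Satellite cell markers (3 of 4 kept) summed to 180.8% and 153.0%, a sum that Cdh15 carried, at 150.2 on the tamoxifen 48 h array, 103.5 at tamoxifen 24 h and 43.5 on the oil array. The other kept satellite markers did not go with it, Pax7 having ratios to oil of -0.45 at 48 h and -0.51 at 24 h and Myf5 of -0.35 and 0.14. Neuromuscular markers (3 of 4 kept) summed to 124.3% and 151.4%. Musk (ratios to oil of 0.35 at 48 h and 0.93 at 24 h) and Etv5 (0.59 and 0.55) carried that sum, and Chrne did not go with them (-0.18 and 0.05). The part of these marker differences in the members' ratios was not tested.

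**Figure D5:**
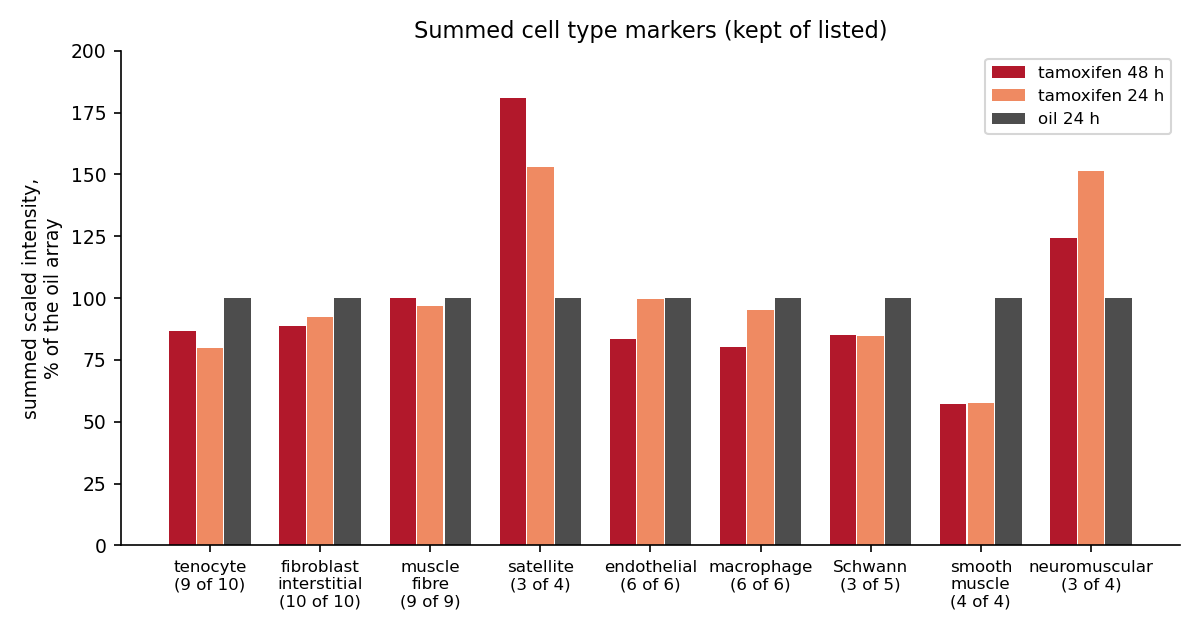
Summed scaled intensity of cell type markers as a percentage of the oil array, for lists with 3 or more kept genes, on the tamoxifen 48 h, tamoxifen 24 h and oil 24 h arrays. Smooth muscle markers stand at 57.1% and 57.4% of oil on the tamoxifen arrays and muscle fibre markers at 100.1% and 96.7%.

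For both members past 2-fold, the genes with the most similar pair of ratios to oil were sought among 10731 genes by Euclidean distance over the 3 arrays. Cilp2 was nearest to Eml2 (distance 0.14 in log2), Hs3st2 (0.32), Fhl3 (0.40), Kif26a (0.44) and Baiap2l1 (0.47). Each of these read under 10 on the tamoxifen 48 h array, from 6.26 for Kif26a to 9.66 for Fhl3. Clec3b was nearest to Slc25a27 (0.08), Pim1 (0.12), Lrba (0.12), Zc3h6 (0.13) and Mpzl2 (0.13). Within a distance of 0.25 stood 1 gene for Cilp2 and 11 for Clec3b.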

How the data were processed

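Gastrocnemius RNA was hybridised to Affymetrix whole-genome mouse arrays, biotin-labelled by the standard Affymetrix protocol, per the labels. The deposited values are linear intensities, 1 per probe set and array. As to how the authors summarised probes, corrected background or scaled them, nothing is stated in the labels. Deposited medians were 13.8 on the tamoxifen 48 h array, 13.2 on tamoxifen 24 h and 15.2 on oil.

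After 64 controls were set aside, 34945 of 45101 probe sets named 1 gene, through the platform annotation with symbols updated to RefSeq. Probe sets with a mean percentile rank of 0.5 or more were kept (21804) and scaled to a common median by 1.05 for tamoxifen 48 h, 0.944 for tamoxifen 24 h and 1.01 for oil. A floor at the 25th percentile of all values was set and log2 taken, in Python 3.11.15 with pandas 2.3.3. The brightest kept probe set represented each gene. No detection calls were used, the number of arrays limits the precision, and the calculation was tested on simulated data. All 10 genes were named, as were list genes past 2-fold (up to 4 a list and comparison), the extremes of other lists, and the 5 nearest patterns. Some list genes, and Btg2 beside Fmod, were also named for their family or position after their values were seen. The members and lists were chosen with earlier results of these data known.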

Additional observations from a re-analysis of the deposited data

How the results depend on the processing

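Left unscaled, the arrays gave a median over all genes of -0.18 for tamoxifen 48 h over 24 h and 0.13 for tamoxifen 24 h over oil, and member ratios shifted with it: the ratio of Comp between the tamoxifen arrays then was -0.09. With probe sets kept only at a mean rank of 0.75 or more, Scx and Cilp2 dropped out, so 1 gene was 2-fold lower for tamoxifen 48 h over oil and 0 for tamoxifen 48 h over 24 h, whose median became 0.071. A 1.5-fold rule gave 5 genes lower and 1 higher for tamoxifen 48 h over oil and 1 higher for 48 h over 24 h. The other 90 alternative values of the counts and medians over members stayed within 1.5 times the count, or within the spread between probe sets for medians, and no value past 2-fold changed sign. Within that limit, the count 2-fold lower for tamoxifen 48 h over oil was 3 in place of 2 under 3 alternatives. Those were the alternatives in which Tnmd passed 2-fold, leaving the arrays unscaled being 1 of them. Of the alternatives for single genes and list medians, 542 stayed within that spread and 10 did not, Cilp2, Col12a1 and Loxl4 among them with log2(value + 16). Alternatives for the other matrix lists were chosen after seeing the data. Averaged over kept probe sets, the ratio of Col1a1 at 48 h was 0.66 and that of Tgfb2 between the tamoxifen arrays 0.23. Leaving out a replicate was not possible with 1 array a group. No paired analysis was possible because each group holds 1 array.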
